A study of Mus musculus with 2 samples.

Results

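The Ms4a and Tmem176 families encode small proteins that cross the membrane several times, and 8 of their genes were followed here: Ms4a4a, Ms4a4c, Ms4a6b, Ms4a6c, Ms4a6d, Ms4a7, Tmem176a and Tmem176b. They were taken by symbol from the 31053 features of the matrices, in which 21 features belong to the 2 families. They were selected on earlier results of these libraries, the low anti-VEGF to control ratios of Tmem176a and Tmem176b in macrophages among them, so their values are a description. The samples were leukocytes sorted live by CD45, the surface phosphatase encoded by Ptprc, from dissociated tumours grown in mice from the mesothelioma line AB1-HA. One group had been given an antibody that binds VEGF, the growth factor of blood vessels (gene Vegfa), and the other a control antibody, and each of the 2 groups gave 1 single-cell library. Strain, age, dose and the number of mice per library are not given in the sources used here.

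Ms4a proteins share the fold of CD20, the B-cell antigen encoded by Ms4a1, and several of them sit beside receptors in the membrane and alter their signalling. Ms4a2 encodes the beta chain of the mast-cell IgE receptor, MS4A4A is a surface protein of macrophages that associates with the fungal receptor dectin-1, and Ms4a7 is widely used as a macrophage marker in mice. Ms4a6b and Ms4a4b are also known from mouse T cells. Tmem176a and Tmem176b encode related proteins of intracellular vesicles, described as cation channels, that are abundant in dendritic cells.

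There were 8825 barcodes with 213948867 UMIs in the anti-VEGF library and 11687 barcodes with 233687412 UMIs in the control library. A UMI, or unique molecular identifier, stands for 1 captured transcript. Median depth was 21781 UMIs per barcode in the anti-VEGF library and 17293 in the control library. With 1 library per group there is no replicate, no test was made, and every interval is an exact 95% interval for counting error only. Cells were placed in classes by marker genes that exclude both families. Macrophages other than the 2 subsets named next made up 4497 of 8159 kept cells in the anti-VEGF library and 6083 of 10805 in the control library, and are called the main macrophages (Other macrophages in the plots). Cells rich in the osteoclast genes Acp5 and Ctsk numbered 795 and 2024 in the anti-VEGF and control libraries, and Ly6c2+ Ccr2+ monocyte-like cells 103 and 54. There were 210 and 30 neutrophils, 19 and 34 mature (Ccr7+ Fscn1+) dendritic cells, 15 and 22 Flt3+ dendritic cells, 67 and 88 T cells, and 277 and 161 collagen-expressing cells in those libraries. Ptprc was detected in only 7.58% of collagen-expressing cells of the anti-VEGF library and 9.94% of those of the control library, against the label of the sort. The cells that met the B-cell gate, 44 and 83, went against its name: Col3a1 stood at 2277 and 2417 CPM (UMIs per 1000000 UMIs of the class) in them and Ptprc was detected in 9.09% and 14.5% of them, so they were not used as B cells. Cells with a second lineage beside macrophage genes (253 and 378) and cells that met no gate (1862 and 1808) were kept out of the classes.

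The 6 Ms4a members lie in 1 cluster on mouse chromosome 19, chr19:11321039-11604849 (GRCm38, 283.8 kb), where the annotation has 19 Ms4a genes in and around it. Tmem176a and Tmem176b lie back to back on chromosome 6 with their 5′ ends overlapping by 0.578 kb (chr6:48840919-48841496). RefSeq lists several starts for each, and the nearest divergent pair used here, 48841483 for Tmem176a on the plus strand and 48841374 for Tmem176b on the minus strand, is 109 bases apart. Because several members changed level together between cell classes, the bases before their starts (RefSeq, GRCm38.p6) are shown, 5′ to 3′ in each gene's own direction, with the letters GGAAGT or their reverse complement ACTTCC in capitals. GGAAGT is a core that ETS-family factors bind, among them PU.1, a main factor of myeloid cells.
Ms4a4c, chr19:11407411-11407660, plus strand: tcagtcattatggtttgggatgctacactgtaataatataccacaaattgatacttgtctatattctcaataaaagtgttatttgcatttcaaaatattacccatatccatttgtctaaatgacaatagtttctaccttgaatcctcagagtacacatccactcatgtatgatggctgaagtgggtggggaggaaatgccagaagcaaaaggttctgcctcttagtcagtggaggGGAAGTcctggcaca
Ms4a6c, chr19:11469268-11469367, plus strand: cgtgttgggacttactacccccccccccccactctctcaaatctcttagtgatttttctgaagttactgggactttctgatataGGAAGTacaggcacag
Ms4a7, chr19:11336147-11336246, minus strand: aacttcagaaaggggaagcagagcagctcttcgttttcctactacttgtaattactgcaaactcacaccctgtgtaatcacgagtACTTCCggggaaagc
Ms4a4a, chr19:11375388-11375487, plus strand: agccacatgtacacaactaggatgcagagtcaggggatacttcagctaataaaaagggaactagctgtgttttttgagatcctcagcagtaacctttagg
Tmem176a and Tmem176b, shared, chr6:48841426-48841455, plus strand: agctgcctgccaGGAAGTgttgaggtctgc
In Ms4a4c, Ms4a6c and Ms4a7 the 6 letters ended 9, 10 and 9 bases before the start, and in the shared Tmem176 stretch they ended 39 bases before that start of Tmem176a. A match on either strand within the last 20 bases occurred in 3 members and in 2.18% of 32851 promoters. Within 250 bases, 6 of the 7 members with an entry had a match, as did 19.7% of promoters, and Ms4a4a had none. A member was counted if any of its listed starts had a match, while the shares of promoters are per start, so the 2 are unlike units. The 6 are also not separate cases. Tmem176a and Tmem176b share a match, and Ms4a6b and Ms4a6c hold the same bases around 1 of theirs. Ms4a6d had no entry. The interferon response core, GAAA repeated after 2 bases (in 2.98% of promoters), and the letters TATAAA (12.4%), on either strand, were in 0 of the 7 members with an entry.

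The 8 genes fell into distinct patterns across cell classes. In both libraries Ms4a4a, Ms4a4c, Ms4a6b, Ms4a6c and Ms4a6d were highest in the Ly6c2+ Ccr2+ monocyte-like cells, Ms4a7 in the main macrophages, and both Tmem176 genes in mature dendritic cells, among the 8 classes with at least 15 cells in each library. With gate thresholds doubled, 32 anti-VEGF and 6 control Ly6c2+ Ccr2+ cells remained, too few to rank. UMIs here count transcript 3′ ends, so levels are not divided by transcript length.

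Ms4a7 was at 705 CPM in anti-VEGF and 831 CPM in control main macrophages, against 434 and 387 CPM in Ly6c2+ Ccr2+ cells and 149 and 131 CPM in Acp5+ Ctsk+ cells of the anti-VEGF and control libraries. The intervals of these 3 classes did not overlap within either library. In mature dendritic cells it was at 4.45 CPM (anti-VEGF, 1 UMI) and 18.6 CPM (control, 11 UMIs). After every cell was thinned to 2000 UMIs, Ms4a7 had a UMI in 56.0% of anti-VEGF and 59.8% of control main macrophages. In T cells, which are not known to use it, the share was 6.15% and 5.95%. Whether those UMIs came from other cells' RNA was not tested. Median depth before thinning was 22291 and 19208 UMIs in main macrophages and 9394 and 9132 in T cells of the anti-VEGF and control libraries.

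Ms4a6d and Ms4a6c, close relatives of unsettled function, were both highest in Ly6c2+ Ccr2+ cells and next in the main macrophages. Ms4a6d reached 1062 CPM in anti-VEGF and 978 CPM in control Ly6c2+ Ccr2+ cells, and 597 and 689 CPM in the main macrophages. Ms4a6c reached 1031 and 1221 CPM in Ly6c2+ Ccr2+ cells, and 478 and 738 CPM in the main macrophages, of the anti-VEGF and control libraries. In the other 6 classes neither was above 158 CPM in either library. The last 400 bases of the Ms4a6c transcript share 19.7% of their 31-base words with Ms4a6b. Reads from such stretches may have gone uncounted in the authors' counting of both genes.

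Ms4a4c had the largest step between its highest and its next class among the 8 members. It stood at 646 CPM in anti-VEGF and 693 CPM in control Ly6c2+ Ccr2+ cells, 9.18 and 10.7 times its level in the next class. The main macrophages held 45.2 CPM (anti-VEGF) and 64.5 CPM (control). Its 3′ end shares 26.2% of 31-base words with Ms4a4b, the T- and NK-cell gene, so a small value of either gene in cells rich in the other is uncertain. Ms4a4a was low everywhere, with 12.6 CPM (18 UMIs, anti-VEGF) and 23.9 CPM (20 UMIs, control) in Ly6c2+ Ccr2+ cells and 3.85 and 6.61 CPM in the main macrophages. In the anti-VEGF library the Ly6c2+ Ccr2+ interval of Ms4a4a met that of mature dendritic cells, where it had 1 UMI.

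Ms4a6b also had a sizeable level in lymphocytes. T cells held 178 CPM in the anti-VEGF and 193 CPM in the control library, against 208 and 284 CPM in the main macrophages and 388 and 385 CPM in Ly6c2+ Ccr2+ cells. In the anti-VEGF library the intervals of T cells (153 to 206) and main macrophages (205 to 210.2) met, and in the control library they did not.

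The Tmem176 pair was arranged differently. Mature dendritic cells held 387 CPM of Tmem176b (87 UMIs, interval 310.0 to 477) in the anti-VEGF library and 328 CPM (194 UMIs, 283 to 378) in the control library, and 325 and 306 CPM of Tmem176a. Collagen-expressing cells came next, with Tmem176b at 178 and 167 CPM and Tmem176a at 117 and 105 CPM in those libraries. Flt3+ dendritic cells, with no Ccr7 UMI by their gate, held 50.5 CPM of Tmem176b in the anti-VEGF and 52.9 CPM in the control library. The ratio of Tmem176b to Tmem176a UMIs was 1.73 in anti-VEGF and 1.71 in control main macrophages, and 1.19 and 1.07 in mature dendritic cells.

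**Figure D1:**
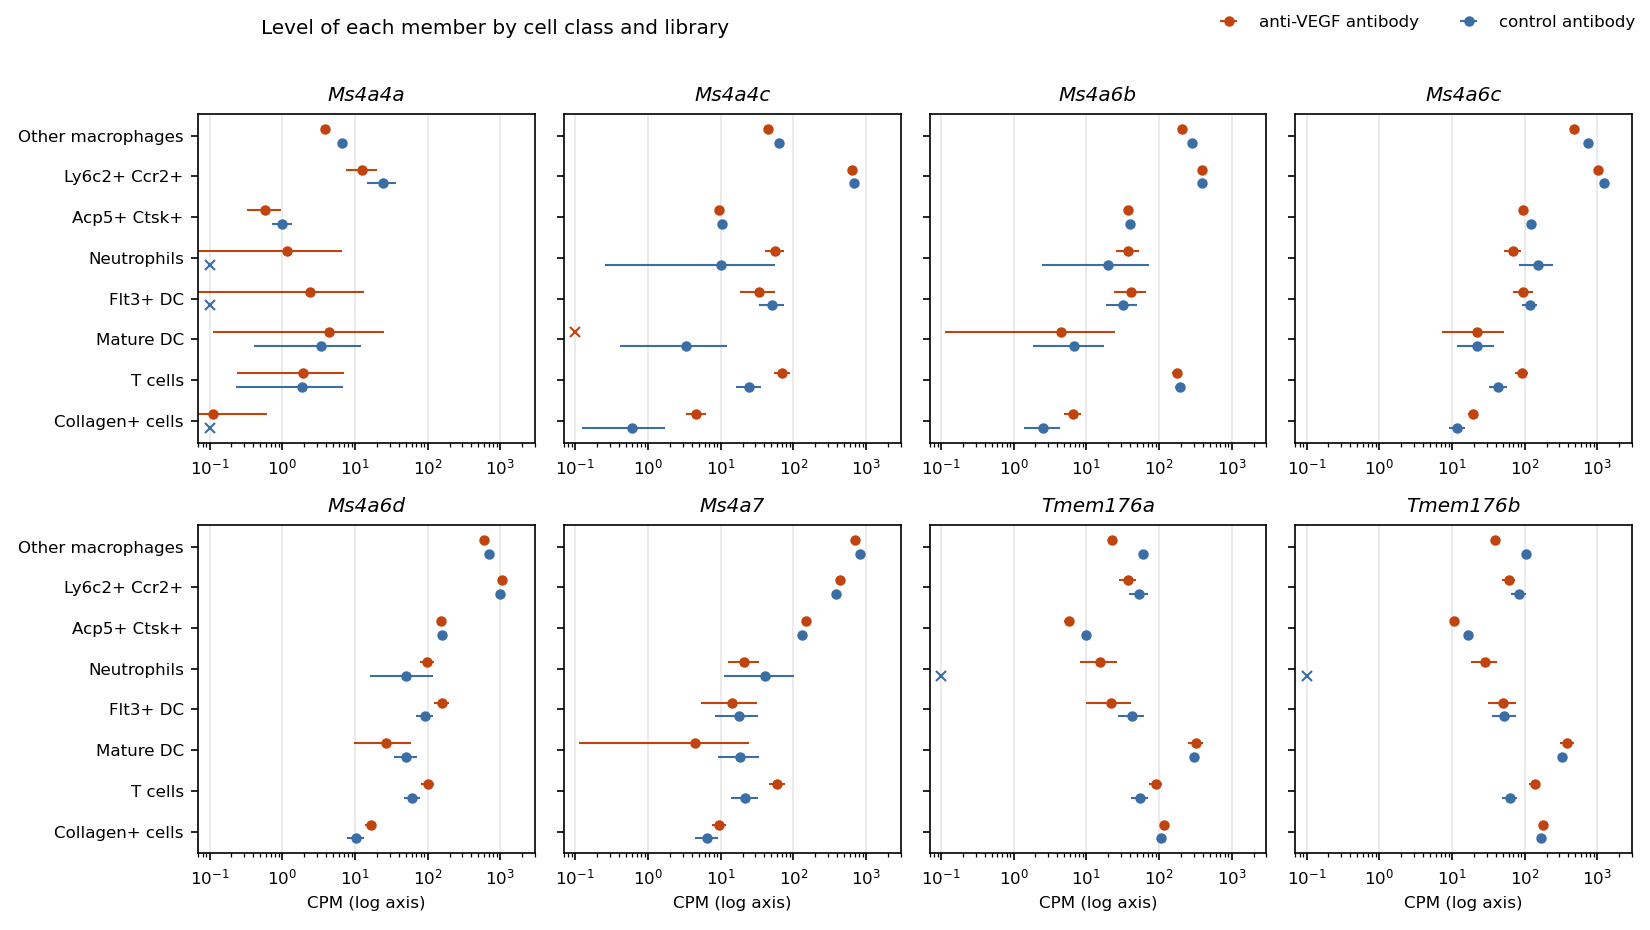
Level of each member in CPM (log axis) in 8 cell classes (rows), anti-VEGF library above the control library in each row. Points are 1 library each, lines are exact 95% counting intervals, and crosses at 0.1 mark classes with 0 UMIs. Ms4a7 lies furthest right in the main macrophages (row Other macrophages) and the Ms4a6 genes in Ly6c2+ Ccr2+ cells. Tmem176a and Tmem176b lie furthest right in mature dendritic cells (387 and 328 CPM for Tmem176b).

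In T cells, Tmem176b stood at 138 CPM (141 UMIs) in the anti-VEGF and 62.5 CPM (66 UMIs) in the control library, a ratio of 2.21 (1.64 to 3.001). Of these UMIs, 14.2% lay in 1 cell in the anti-VEGF and 30.3% in 1 cell in the control library.

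Among the 13 other features of the families, 6 had at least 30 UMIs and 2 had 0. Ms4a4b stood at 472 CPM in anti-VEGF and 677 CPM in control T cells, and at 947 and 910.1 CPM in the 7 and 16 NK cells. Ms4a2 reached 147 CPM (13 UMIs) and 353 CPM (53 UMIs) in the 6 and 15 cells of the mast or basophil gate. Ms4a8a, seen before in alternatively activated mouse macrophages, was at 28.1 CPM in anti-VEGF and 17.95 CPM in control Ly6c2+ Ccr2+ cells and at 3.25 and 1.94 CPM in the main macrophages. Ms4a14 was at 7.62 and 9.56 CPM in the main macrophages. Ms4a1 had 12 UMIs in the whole anti-VEGF library and 35 in the control library, and Ms4a4d 35 and 7.

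Within the main macrophages all 8 members were lower in the anti-VEGF library, and the Tmem176 pair differed most. Tmem176b was at 38.7 CPM (4399 UMIs) in anti-VEGF and 104 CPM (13123 UMIs) in control cells, a ratio of 0.371 (0.359 to 0.384). Tmem176a was at 22.4 CPM in anti-VEGF and 61.2 CPM in control cells, a ratio of 0.367 (0.351 to 0.384). Of 13751 genes with at least 30 UMIs, 8 had a lower log2 ratio than Tmem176b and 9 a lower one than Tmem176a. These ratios led to the choice of the pair and support nothing further.

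The Ms4a members differed less, and not alike. Ms4a4a had a ratio of 0.581 (0.517 to 0.654) and Ms4a6c of 0.648 (0.641 to 0.655). Ms4a4c followed at 0.701 (0.677 to 0.726) and Ms4a6b at 0.731 (0.719 to 0.743). Ms4a7 (0.849) and Ms4a6d (0.866) were closest to 1. Thus 4 of 8 members were at least 1.5-fold lower and 0 at least 1.5-fold higher. Of all genes, 6.04% were that much lower and 7.32% that much higher. The 4 include the Tmem176 pair, chosen for its low ratios in these cells, so neither this count nor the median below can show an excess. The median log2 ratio over the 8 members was −0.56 and over all genes −0.07. Ms4a6c lies so near the 1.5-fold line (its ratio corresponds to 1.54-fold lower) that 2 other scalings placed it inside. The macrophage markers used for the gate were also lower: their summed level had a median of 69.3 per 10000 UMIs in anti-VEGF and 97.3 in control main macrophages. Its part in the lower member levels was not tested. The 7 MHC class II list genes all lay below 1 (median log2 ratio −0.20), and the 7 hypoxia list genes all above 1 (1.57).

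The lower levels lay in the share of cells with a UMI, in the UMIs per positive cell, or in both, depending on the member. With every cell of at least 5000 UMIs thinned to 5000 (4092 anti-VEGF and 4578 control cells), Tmem176b had no UMI in 87.5% of anti-VEGF and 71.6% of control main macrophages. Cells with a UMI of it held 1.68 on average in the anti-VEGF and 2.12 in the control library. For Ms4a6c, 24.5% of anti-VEGF and 11.2% of control cells had none, and 16.7% and 35.2% had 5 or more. For Ms4a7 the share with none was 24.9% and 24.3%, so its difference lay among positive cells, of which the average UMI count was 4.78 in the anti-VEGF and 5.76 in the control library. Ms4a6d was similar, with 15.4% and 14.9% without a UMI. Ms4a4c was the reverse: 86.1% of anti-VEGF and 78.6% of control cells had none, while positive cells held 1.79 and 1.73 on average. Without thinning, the Tmem176b ratio was 0.448 in cells with fewer than 10000 UMIs, 0.332 from 10000 to 20000, 0.349 from 20000 to 40000 and 0.459 above, so it lay below 1 in all 4 depth groups.

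**Figure D2:**
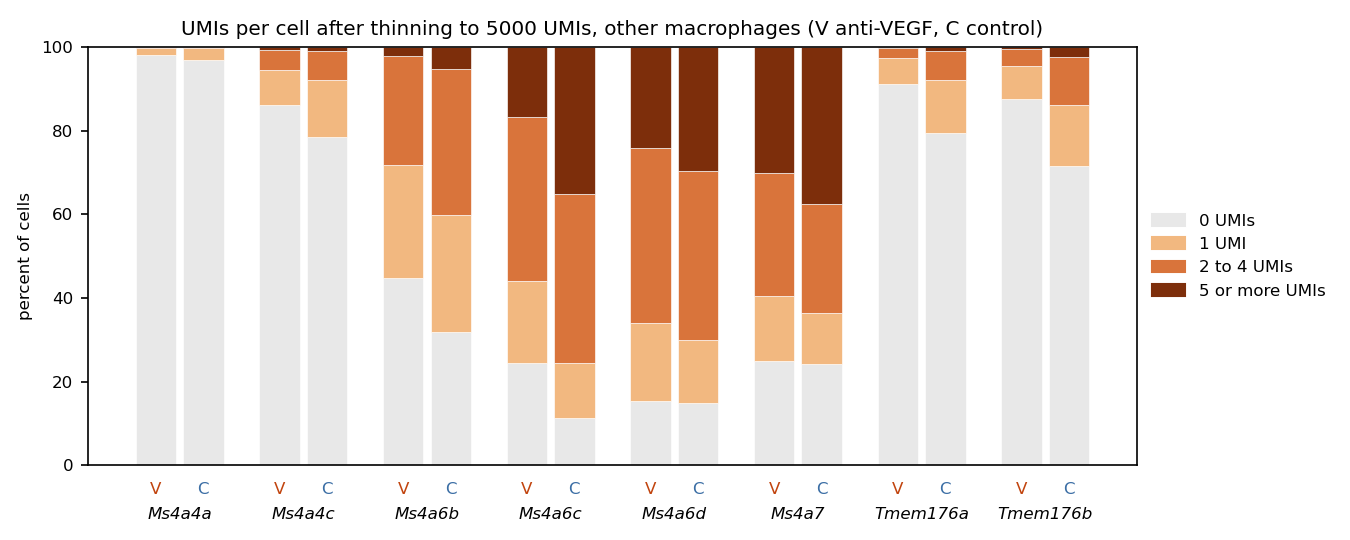
Share of main macrophages with 0, 1, 2 to 4, or 5 or more UMIs of each member after thinning to 5000 UMIs, anti-VEGF library (V) left of control library (C). The grey part, cells with 0 UMIs, is taller in the anti-VEGF library for Tmem176b (87.5% against 71.6%) and Ms4a6c (24.5% against 11.2%), and about level for Ms4a7.

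The other classes did not all share this. In Acp5+ Ctsk+ cells Tmem176b was at 10.6 CPM in anti-VEGF and 16.6 CPM in control cells (ratio 0.638, 0.552 to 0.736) and Tmem176a at 5.83 and 9.79 CPM (0.595). Here 3 of 8 members were at least 1.5-fold lower, with 4.01% of genes as low, and 0 were as much higher, with 4.97% of genes as high. The 3 were the Tmem176 pair and Ms4a4a, the latter on 15 anti-VEGF and 41 control UMIs (0.588, 0.303 to 1.09). The pair shares a locus and was chosen for its low ratios in macrophages, so this count cannot show an excess. With gate thresholds doubled 0 of 8 were 1.5-fold lower (Tmem176b 0.713, Tmem176a 0.689), and with the macrophage condition of the gate dropped Tmem176b was at 0.708 and Tmem176a at 0.712. Ms4a7 was slightly higher in these cells, at 149 CPM in the anti-VEGF and 131 CPM in the control library (1.14, 1.09 to 1.19).

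In Ly6c2+ Ccr2+ cells the intervals of 7 members' ratios held 1. The exception was Ms4a6c, at 1031 CPM in anti-VEGF and 1221 CPM in control cells (0.845, 0.779 to 0.916). Tmem176b was at 60.4 CPM (86 UMIs) in anti-VEGF and 83.8 CPM (70 UMIs) in control cells, a ratio of 0.721 (0.520 to 1.00). Ms4a4a (0.528, 0.263 to 1.05) was the 1 member at least 1.5-fold lower, among 7.96% of genes, and 0 were as much higher, among 12.3%. With gate thresholds halved (171 anti-VEGF and 91 control cells) 3 of 8 were 1.5-fold lower, Tmem176b at 0.542 and Tmem176a at 0.586 besides Ms4a4a.

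In T cells, 6 of the 7 members with 30 UMIs were at least 1.5-fold higher in the anti-VEGF library, where 14.3% of genes were that high, and 0 as much lower (8.12%). Besides the Tmem176 pair these were Ms4a7, Ms4a4c, Ms4a6c and Ms4a6d, each highest in main macrophages or Ly6c2+ Ccr2+ cells here. Ms4a7 was at 59.6 CPM in anti-VEGF and 21.8 CPM in control T cells, and Ms4a4c at 70.4 and 24.6 CPM. Ms4a6c was at 91.9 and 43.6 CPM and Ms4a6d at 99.7 and 60.6 CPM. Single cells carried 27.9% of the Ms4a7 UMIs and 30.9% of the Ms4a6c UMIs of the anti-VEGF T cells. Markers of other cell types also differed in these cells. S100a8 of neutrophils was at 267 CPM in the anti-VEGF and 4.73 CPM in the control library. Sparc was at 188 and 1.89 CPM and Col3a1 at 104 and 4.73 CPM. Ly6c2 was at 113 and 51.1 CPM, and whether the T cells made it themselves was not tested. Of the macrophage genes, Adgre1 was at 18.6 CPM in anti-VEGF and 12.3 CPM in control T cells, C1qa at 72.3 and 99.4 CPM and Csf1r at 107.5 and 122 CPM, and the part of other cells' RNA was not tested. The T-cell gate itself has no level threshold, so halving all gate thresholds only set more of these cells aside as mixed. That left 58 anti-VEGF and 66 control T cells, with 4 of 7 members 1.5-fold higher. Ms4a7 was then at 25.8 CPM in anti-VEGF and 22.2 CPM in control T cells, a ratio of 1.16. Ms4a4c was at a ratio of 1.40 and Tmem176b at 2.19. In the gate as used, Ms4a6b, which T cells are known to use, was at 178 and 193 CPM (0.921, 0.750 to 1.13).

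In collagen-expressing cells the Tmem176 pair was level, Tmem176b at 178 CPM in anti-VEGF and 167 CPM in control cells (1.07, 0.980 to 1.16) and Tmem176a at 117 and 105 CPM (1.11, 1.00 to 1.23). There 4 of 7 members were at least 1.5-fold higher, with 5.75% of genes as high, and 0 as much lower (5.76%). The 4 were Ms4a genes at low levels. Ms4a6c was at 19.3 CPM in anti-VEGF and 11.9 CPM in control cells, and Ms4a4c rested on 42 UMIs, 38.1% of them in 1 cell, against 3. With gate thresholds halved 2 of 7 were 1.5-fold higher, Ms4a6c standing at a ratio of 1.07, and with thresholds doubled 1 of 6. Ms4a7 was at 1.45 (0.958 to 2.23) in the gate as used and at 0.875 and 0.876 with thresholds halved and doubled. Among macrophage and monocyte genes in the collagen-expressing cells, C1qa was at 41.7 CPM in the anti-VEGF and 35.1 CPM in the control library, Adgre1 at 6.38 and 2.77 CPM, Ccr2 at 7.48 and 2.97 CPM and Csf1r at 21.6 and 46.6 CPM, and their part was not tested. Neutrophils were shallow (medians of 2298 UMIs in anti-VEGF and 2620 in control cells) and only 4 members had 30 UMIs in them, 3 at least 1.5-fold higher, with 27.5% of genes as high, and 1 as much lower (15.2%). The lower one, Ms4a6c, had a ratio of 0.460, which turned to 2.13 with gate thresholds halved, where 155 anti-VEGF and 21 control neutrophils were left. Ms4a6d, at 97.5 CPM (83 UMIs) in anti-VEGF and 50.3 CPM (5 UMIs) in control neutrophils, had a ratio of 1.94 with an interval of 0.799 to 6.13. Genes of other classes were present in the anti-VEGF neutrophils. Ctsk was at 2148 CPM, Acp5 at 1147 CPM, Csf1r at 123 CPM and C1qa at 69.3 CPM, and their part was not tested.

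Cells outside these classes were looked at in the same way. Among mixed cells, whose macrophage markers were at a median of 71.2 per 10000 UMIs in anti-VEGF and 92.5 in control cells, Tmem176b was at 64.2 CPM in the anti-VEGF and 132 CPM in the control library (0.485, 0.438 to 0.536). Both Tmem176 genes were at least 1.5-fold lower there, 2 of 8 members where 7.42% of genes were, and 0 as much higher (5.21%). Among cells that met no gate, Tmem176b was level at 43.7 CPM in anti-VEGF and 41.3 CPM in control cells (1.06, 0.985 to 1.14), with 0 of 8 members 1.5-fold lower (6.38% of genes) or higher (8.43%). In the Col3a1-rich cells of the B-cell gate it was at 159.7 CPM in anti-VEGF and 184 CPM in control cells, near its level in collagen-expressing cells. There 0 of 7 members were 1.5-fold lower (10.6% of genes) and 1 higher (3.84%), Ms4a4c with 47 UMIs in the anti-VEGF and 8 in the control library.

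**Figure D3:**
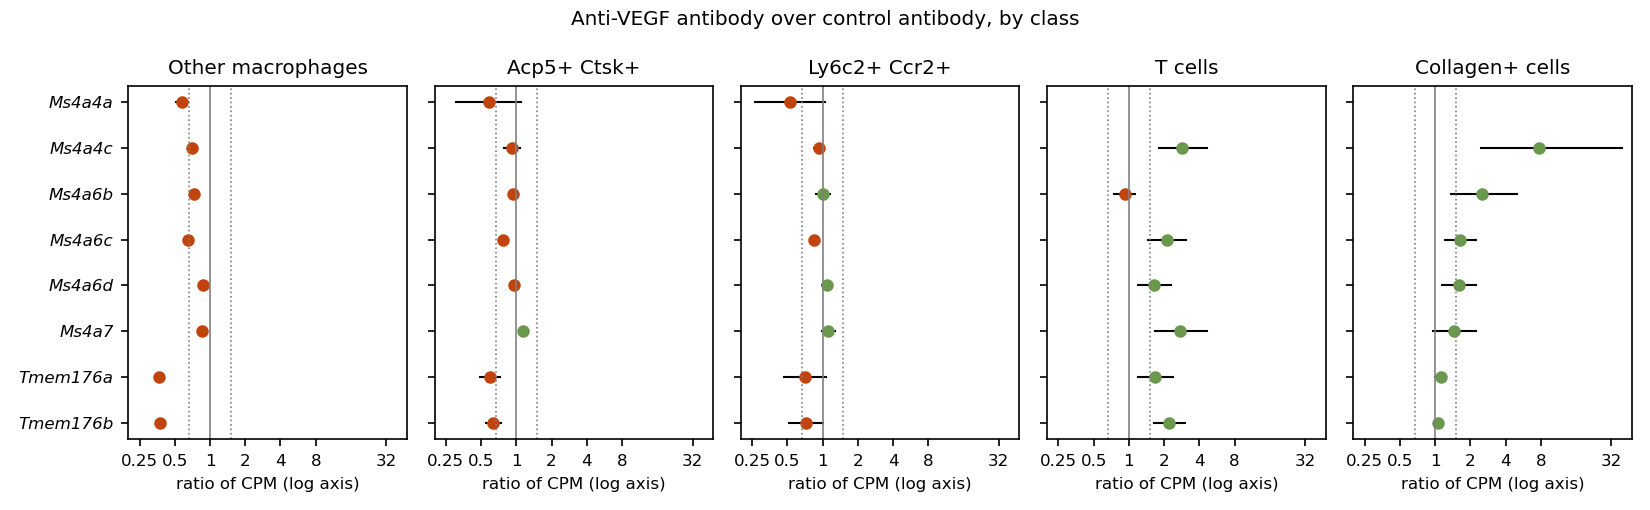
Ratio of CPM, anti-VEGF antibody over control antibody (log axis), for each member (rows) in 5 cell classes, with exact 95% counting intervals. The solid line is 1 and dotted lines are 1.5-fold lower and higher, with orange points below 1 and green points above. All points lie left of 1 in the main macrophages (panel Other macrophages), with Tmem176a and Tmem176b at 0.367 and 0.371, while most points of T cells lie right of it. Members under 30 UMIs in a class are not drawn.

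The main macrophages were next divided, within each library, by the mean level of 7 gene lists. For each list, cells of both libraries with at least 5000 UMIs were ranked together, and the highest 20% and lowest 20% compared. The cells of a range share a library, so these are descriptions of 2 libraries.

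Along the MHC class II list (antigen-presenting molecules and their partners), Ms4a4c and the Tmem176 pair rose most among the members in both libraries. Tmem176b was at 89.7 CPM in the high and 15.04 CPM in the low range of the anti-VEGF library, 5.96-fold, and at 223 and 43.1 CPM in those ranges of the control library, 5.18-fold. Tmem176a was 6.96-fold and 6.02-fold higher. Ms4a4c was at 125 CPM in the high and 6.59 CPM in the low range of anti-VEGF cells, 18.9-fold, and at 122 and 18.9 CPM in control cells, 6.46-fold. Ms4a7 ran the other way, 0.889-fold in the anti-VEGF and 0.725-fold in the control library. In each library 5 of 8 members were at least 1.5-fold higher, where 10.5% of genes in the anti-VEGF and 11.3% in the control library were, and 0 were as much lower (10.1% and 13.8%).

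The difference between libraries stood within each of the 5 ranges of this list for Tmem176b, with ratios of 0.349, 0.423, 0.470, 0.336 and 0.402 from the low to the high range. For Ms4a4c the ratio was 0.349 in the low range and 1.02 in the high one, where it was at 125 CPM in anti-VEGF and 122 CPM in control cells. Thus the most MHC class II-rich macrophages of both libraries held the same level of Ms4a4c within counting error and unlike levels of Tmem176b, 89.7 CPM in anti-VEGF and 223 CPM in control cells. The high range held 17.6% of the anti-VEGF and 22.1% of the control cells. For cells with at least 5000 UMIs, the anti-VEGF cells were weighted to the control library's shares of the 5 ranges. The Tmem176b log2 ratio was then −1.32. Without weights it was −1.41 over all main macrophages, so these values differ in cells as well as weights. Only this list was used for weighting.

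The resident list (Selenop, Stab1, Mrc1 and other genes of tissue macrophages) went with Ms4a4a, Ms4a7 and Ms4a6d. Ms4a7 was at 1099 CPM in the high and 231 CPM in the low range of the anti-VEGF library, 4.77-fold, and at 1238 and 189.8 CPM in the control library, 6.53-fold. Ms4a4a was at 10.8 CPM in the high and 0.689 CPM in the low range of anti-VEGF cells, and at 11.3 and 0.701 CPM in control cells. Ms4a6d was 3.03-fold and 4.10-fold higher, and Ms4a4c 1.45-fold and 1.06-fold, in the anti-VEGF and control libraries. In each library 7 of 8 members were at least 1.5-fold higher, where 18.3% of genes in the anti-VEGF and 20% in the control library were, and 0 as much lower (16% and 19.1%). The high range held 13.4% of the anti-VEGF and 25.9% of the control cells.

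From the low to the high resident range, the Ms4a7 ratio between libraries was 1.21, 0.829, 0.965, 0.874 and 0.887. Tmem176b was further apart in all 5, with ratios of 0.475, 0.267, 0.332, 0.362 and 0.457.

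The interferon list (Isg15, Irf7, Rsad2 and other genes that interferons induce) set Ms4a4c apart. It was at 110.3 CPM in the high and 12.2 CPM in the low range of the anti-VEGF library, 9.02-fold, and at 176 and 29.2 CPM in the control library, 6.04-fold. The Tmem176b high to low ratio was 1.06 in the anti-VEGF and 0.809 in the control library. Members at least 1.5-fold higher numbered 6 of 8 in anti-VEGF and 2 of 8 in control cells, where 7.38% and 6.79% of genes were, and 0 were as much lower in either (4.67% and 6.25%). The other 5 of the anti-VEGF library lay between 1.54-fold and 1.82-fold.

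The hypoxia list (Adm, Ndrg1, Slc2a1, Vegfa and other genes of low oxygen) went with lower levels of the pair. Tmem176b was at 23.2 CPM in the high and 62.8 CPM in the low range of the anti-VEGF library, and at 45.4 and 123 CPM in the control library, 0.369-fold in each. Ms4a6c was 0.479-fold in anti-VEGF and 0.638-fold in control cells, while Ms4a6d was 0.769-fold and 1.02-fold. Members at least 1.5-fold lower numbered 7 of 8 in the anti-VEGF and 3 of 8 in the control library, where 27.4% and 26.2% of genes were, and 0 as much higher (15.1% and 11.8%). The high range held 34.1% of the anti-VEGF and 7.38% of the control cells. Inside the 5 hypoxia ranges the Tmem176b ratio between libraries was 0.510, 0.446, 0.484, 0.432 and 0.511, nearer to 1 than the 0.371 over all main macrophages, and Ms4a7 was at 1.07, 0.925, 0.969, 0.889 and 0.808.

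The high range of the Lpl list (Lpl, Vegfc and Dusp9) had lower levels of every member in both libraries, from 0.315-fold for Ms4a4a to 0.692-fold for Ms4a6c in anti-VEGF cells, and 7 and 8 members were at least 1.5-fold lower (12.4% and 16.6% of genes), 0 as much higher (13.9% and 12.9%). Its low range took in all cells with a score of 0, 55.9% of the anti-VEGF and 51.6% of the control cells. The Lyz1 and cycling lists gave mixed directions. In the Lyz1 list (Lyz1, Ch25h and Cd36) Ms4a7 was 1.61-fold higher in anti-VEGF and 1.93-fold in control cells, while Tmem176b was 0.392-fold and 0.558-fold. There 1 and 2 members were at least 1.5-fold higher (6.54% and 10.3% of genes) and 3 in each library as much lower (7.70% and 12.3%). Along the cycling list Tmem176b was 1.01-fold in the anti-VEGF and 0.678-fold in the control library, with 0 and 2 members at least 1.5-fold lower (9.56% and 12.5%) and 0 higher (24.2% and 20.5%).

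**Figure D4:**
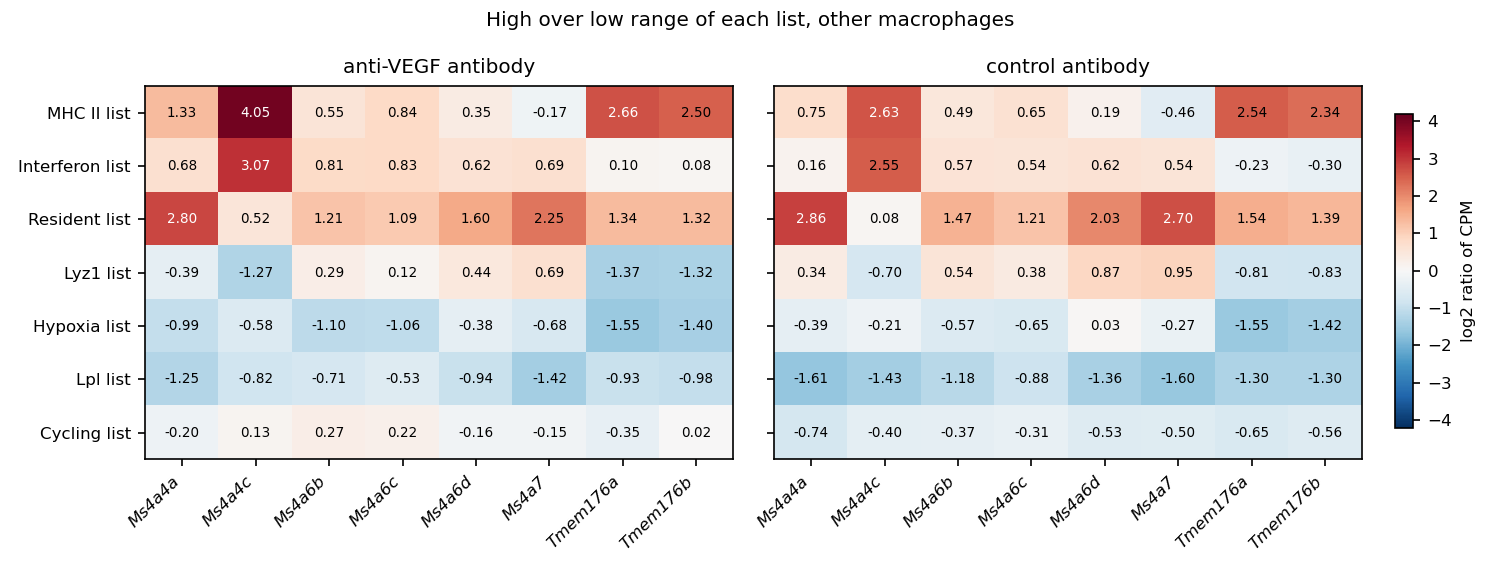
Log2 ratio of CPM (pseudocount of 1 CPM) between the high and the low range of 7 gene lists (rows) for each member (columns) within the main macrophages, anti-VEGF library left, control library right. Red is higher in the high range. Ms4a4c stands out in the MHC II and interferon rows, Ms4a4a and Ms4a7 in the resident row, and both Tmem176 genes are red in the MHC II row and blue in the hypoxia row.

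**Figure D5:**
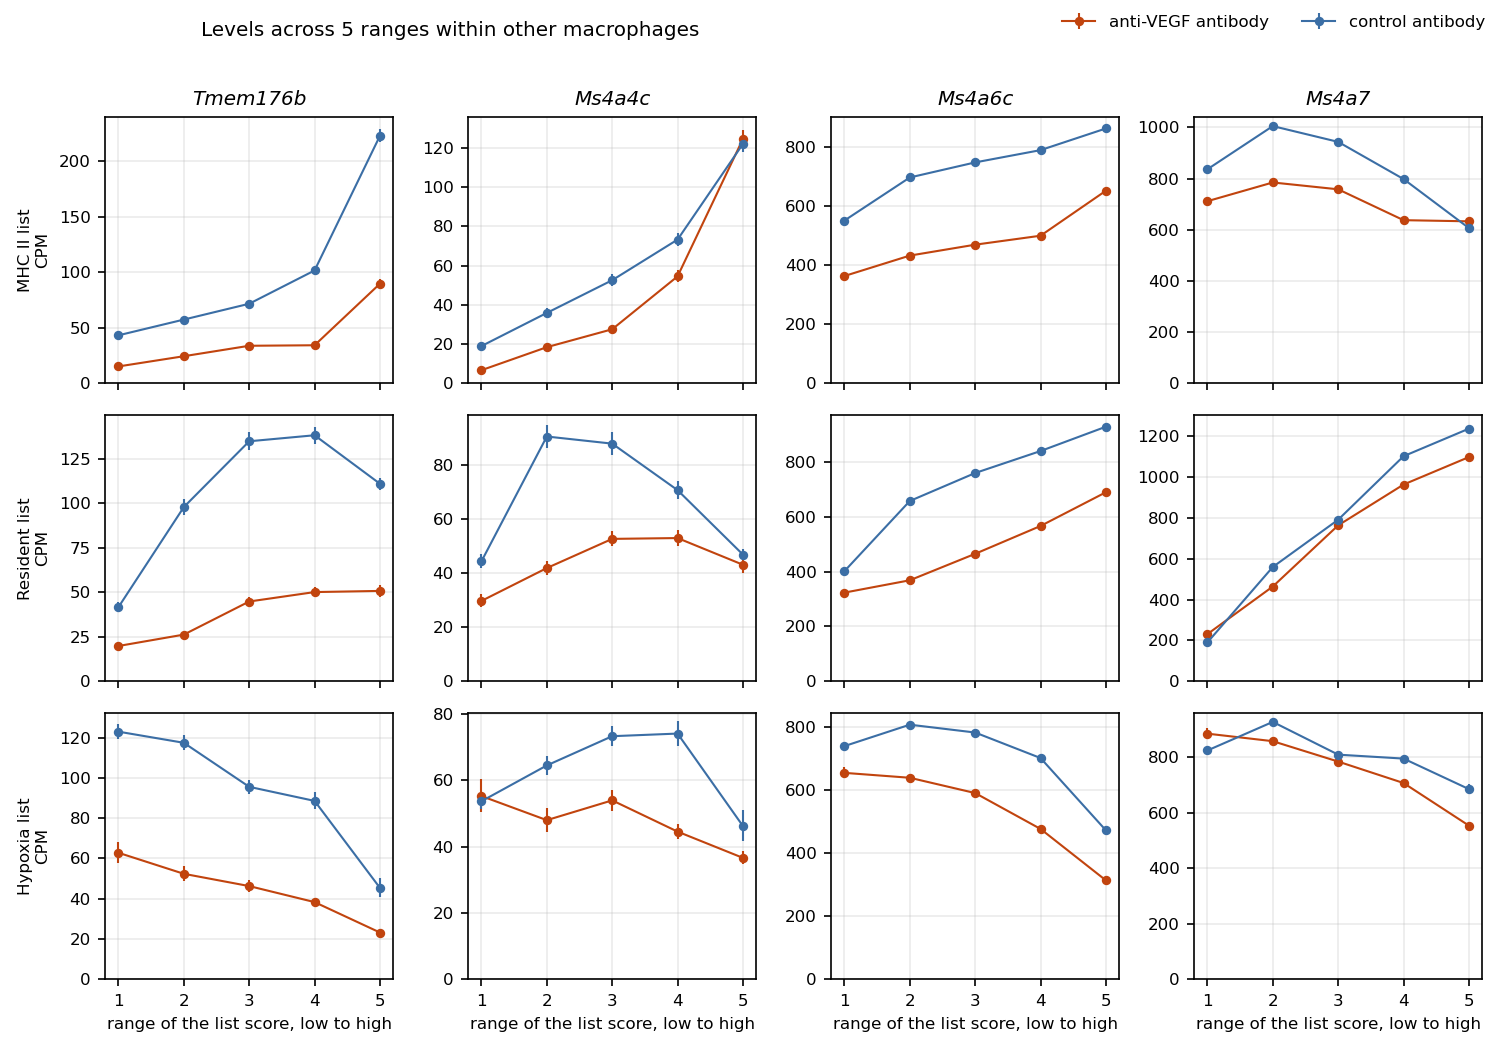
CPM of Tmem176b, Ms4a4c, Ms4a6c and Ms4a7 in 5 ranges of the MHC II, resident and hypoxia lists, low to high, with exact 95% counting intervals. The anti-VEGF line lies under the control line for Tmem176b at all 15 points, while the 2 lines come together for Ms4a4c (ratio 1.02) and Ms4a7 (1.04) in the high MHC II range.

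Across single main macrophages (log of 1 plus UMIs per 10000), the members formed the same pairs in both libraries. These correlations are descriptions and share each cell's depth. Tmem176a and Tmem176b had Pearson's r = 0.756 over 4092 anti-VEGF cells and 0.809 over 4578 control cells. Ms4a6b and Ms4a6c had 0.723 and 0.708, and Ms4a6c and Ms4a6d 0.651 and 0.680. Between Ms4a7 and Tmem176b r was 0.0836 in the anti-VEGF and 0.120 in the control library. After thinning to 5000 UMIs, Tmem176a had a UMI in 38.2% of anti-VEGF cells with Tmem176b and 4.78% of those without, and in 49.8% and 9.06% of control cells.

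The genes outside the families with the highest r differed by member. For Tmem176b these were H2-Eb1 (0.339), H2-Aa (0.329) and Aif1 (0.325) in anti-VEGF cells and Aif1 (0.431), H2-Aa (0.426) and H2-Eb1 (0.420) in control cells, 2 of the 3 being MHC class II chains. For Ms4a4c they included Zbp1 and Ifi44 in both libraries, genes that interferons induce, with r = 0.476 and 0.457 in anti-VEGF cells. For Ms4a7 they included C1qa (0.633 in anti-VEGF and 0.657 in control cells), a complement chain, and Grn, for Ms4a6c the protease gene Ctsc (0.598 and 0.557), and for Ms4a4a Mrc1, Selenop and Apoe at 0.207 to 0.227 in anti-VEGF cells. Over 18 points (log2 CPM of 9 sets of cells in each of 2 libraries), Tmem176a and Tmem176b had r = 0.994 and Ms4a6c and Ms4a6d 0.973, while Ms4a7 and Tmem176b had −0.115. The 9 were the sets with at least 20 cells in each library, so the mixed, ungated and B-gate cells were among them and dendritic cells were not, and points of 1 library share its depth. The closest outside genes over these points were Adgre1, which encodes F4/80, for Ms4a7 (0.986), Irf7 for Ms4a4c (0.926), Ctss for Ms4a6d (0.992) and Mia3 for Tmem176b (0.949). Gate genes were kept among the candidates. Adgre1 and C1qa are macrophage gate genes, so the likeness of Adgre1 to Ms4a7 over these points is not separate from the gating.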

How the data were processed

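For each of the 2 libraries the authors deposited 1 matrix of UMI counts (genes by barcodes, not normalized). The submitters' processing notes name Cell Ranger 3.0.2 and mm10. The version per the file headers is 3.1.0. Single cells were captured with 10x Genomics 3′ v3.1 chemistry, per the labels' protocols. The members, lists, gates and ranges were chosen with earlier results of these data known. The cell filter asked for 300 genes, 500 UMIs and no more than 10% of UMIs from mitochondrial genes, which 92.5% of barcodes passed in each library. The 2 libraries shared 35 barcode sequences, which were kept apart by library. Classes came from marker gates: at least 2 lineage markers for lymphoid and mast cells, collagen genes at 20 or more per 10000 UMIs, and at least 3 of 8 macrophage markers with their 5 gate genes at 5 or more. No doublet caller was run, and cells with another lineage's gate and macrophage genes at 10 or more were set aside as mixed.

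Counts of a class were added up within a library and scaled to its total (CPM). Ratios used genes with at least 30 UMIs in classes of at least 20 cells per library, log2 ratios a pseudocount of 1 CPM. Intervals are exact: Poisson for levels, Clopper-Pearson for shares, conditional binomial for ratios. They and the limit of 3 counts that a value of 0 allows cover counting error, which is small in the main macrophages (113615000 and 125783598 UMIs) and large in classes under 100 cells. The ratio step was tested on simulated counts. Named genes were the 8 members, family genes with at least 30 UMIs, and the 5 genes of highest r per member over points (genes with 50 CPM in a point) or cells (genes in at least 10% of cells). The text gives some of these, and some are not reported here. Promoter sequences are from RefSeq (GRCm38.p6) and gene positions from GENCODE (GRCm38). Motif letters were searched on both strands. Alternatives were other filters, scalings (edgeR 4.0.16 for TMM), pseudocounts, thinning, gate thresholds and weighting. Python 3.11.15, numpy 2.4.6, pandas 2.3.3, scipy 1.17.1, matplotlib 3.10.9 and R 4.3.3 were used.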

Additional observations from a re-analysis of the deposited data

Results flagged for a closer look

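For 11 values the interval of the anti-VEGF to control ratio lay above 1 in a class and below 1 in the main macrophages. Other members with a ratio above 1 in a class had an interval that held 1. Mixed, ungated and B-gate cells were left out of this list. With 1 library per group, the difference between classes was not tested. In Acp5+ Ctsk+ cells Ms4a7 had a ratio of 1.14, against 0.849 in the main macrophages. In T cells the ratios were 2.21 for Tmem176b (0.371 in the main macrophages), 1.67 for Tmem176a (0.367), 2.74 for Ms4a7 (0.849), 2.86 for Ms4a4c (0.701), 2.11 for Ms4a6c (0.648) and 1.65 for Ms4a6d (0.866). With gate thresholds halved, which for T cells only set more of them aside as mixed, the ratios of Ms4a7 and Ms4a4c were 1.16 and 1.40. The median macrophage-marker level of T cells in the gate as used was 1.44 per 10000 UMIs in the anti-VEGF and 2.88 in the control library. In collagen-expressing cells the ratios were 7.77 for Ms4a4c (0.701 in the main macrophages), 1.62 for Ms4a6c (0.648), 2.52 for Ms4a6b (0.731) and 1.59 for Ms4a6d (0.866). With gate thresholds halved, Ms4a6c and Ms4a6d were at 1.07 and 1.26 there. The median macrophage-marker level of these cells was 0.544 per 10000 UMIs in the anti-VEGF and 0.898 in the control library, while summed over cells C1qa was at 41.7 and 35.1 CPM.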

How the results depend on the processing

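Across 11 alternatives the 8 members stayed below a ratio of 1 in the main macrophages, 0 became 1.5-fold higher, and the number 1.5-fold lower was 4, or 3 with TMM or median-of-ratios scaling, which left Ms4a6c out. The median log2 ratio of the 8 members (−0.56) was −0.48 with either scaling, −0.61 as a mean over cells and −0.49 weighted to control MHC II shares. These scalings moved the median of all genes from −0.07 to −0.01. The Tmem176b log2 ratio (−1.41) was −1.51 with thinning to 5000 UMIs, −1.32 with TMM, median-of-ratios scaling or MHC II weights, and −1.35 as a mean over cells. Thinning and MHC II weighting took only cells with at least 5000 UMIs. In depth groups chosen after the data were seen it was −1.14, −1.58, −1.49 and −1.10 from shallow to deep cells. Of 77 values for the other 7 members, 0 changed sign and 35 moved beyond their counting interval. By the mean of both libraries, 6 of 8 members were highest in a macrophage-lineage class with halved or doubled gates and with thinning to 5000 UMIs. Doubled gates left 6 control Ly6c2+ Ccr2+ cells, too few to rank, and in the anti-VEGF library Ms4a4c was then highest in T cells (65.4 CPM) and Ms4a4a in mature dendritic cells (4.45 CPM, 1 UMI). Gate thresholds moved counts in the small classes, as given beside those results. No paired analysis was possible because each group has 1 library. Classes under 100 cells, and the low counts of Ms4a4a, limit what depth can show.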
